A study of Homo sapiens with 6 samples.

Results

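The 40 genes described here are regulators and targets of NRF2, the transcription factor encoded by NFE2L2. They were taken by symbol from a list, and all 40 were found among the 46427 genes of the deposited table. The list was chosen with earlier results of these data known, which limits its comparison with all genes. RNA-seq had been carried out in 3 NSCLC cell lines, H460 from a large cell carcinoma, A549 from an adenocarcinoma and H1299 from a lymph node metastasis, with 1 control library and 1 library after transfection with siRNA against the long noncoding RNA MALAT1 (si-MALAT1) in each line, 6 libraries in all. H460 and A549 are known to carry mutations of KEAP1 and H1299 is not, which is background on the lines and is in neither the labels nor the counts. The labels call the controls non-treated, whereas the methods of the study describe both untreated cells and a control siRNA, so a change after si-MALAT1 may hold the effect of transfection as well. Each library is a culture of 1 cell line, and no line and condition was sequenced in a replicate, so p-values measure the spread between these libraries only.

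NRF2 is held in the cytoplasm by KEAP1, the substrate adaptor of a CUL3 ubiquitin ligase that marks it for degradation. Oxidants and electrophiles modify KEAP1, NRF2 then escapes degradation, pairs with a small MAF protein such as MAFG in the nucleus and binds antioxidant response elements near its targets. The targets make glutathione and reduce it, run the thioredoxin cycle, supply NADPH, reduce quinones and carbonyls, conjugate and export foreign compounds, and handle heme and iron. In lung cancer, loss of KEAP1 function leaves NRF2 active without a stimulus. NRF2 is controlled mainly at the protein level, so the RNA level of NFE2L2 or KEAP1 is not a measure of NRF2 activity.

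The core of the antioxidant response element reads TGACNNNGC. It was searched on both strands in the RefSeq promoter windows (GRCh38.p14, 250 bases before to 50 after the start), which held an entry for 30 of the 40 genes. The word was in 8 of the 30 (26.7%) and in 13.6% of all 27305 promoters. Over a window of 1000 bases before to 50 after the start, it was in 17 of the 30 (56.7%) and in 33.7% of all promoters. The sites below are shown because they belong to genes on which the results turn, and each is printed 5′ to 3′ on the strand that reads TGAC, with the word in capitals and its distance taken from the middle base of the word to the start.
NQO1, chr16:69726997-69727025, minus strand: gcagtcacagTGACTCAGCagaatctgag
TALDO1, chr11:746501-746529, plus strand: acccagggacTGACTCAGCataagcggac
ME1, chr6:83431170-83431198, minus strand: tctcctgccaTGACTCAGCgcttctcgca
GCLM, chr1:93909446-93909474, plus strand: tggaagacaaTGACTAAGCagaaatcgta
GPX2, chr14:64942849-64942877, plus strand: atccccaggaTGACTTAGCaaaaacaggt
TXNRD1, chr12:104215670-104215698, plus strand: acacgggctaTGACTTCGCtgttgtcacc
CYP4F11, chr19:15935005-15935033, plus strand: cagctcagggTGACACAGCatgggcacag
CYP4F3, chr19:15640711-15640739, minus strand: cagctcagggTGACACAGCacaggcactg

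The word of NQO1 lay 451 bases before the start and that of TALDO1 949 bases before it, and both begin with TGACTCA, the word bound by AP-1 factors. ME1 held the same overlapping word 133 bases before its start. The words shown were nearer to the start in GCLM at 30 bases, TXNRD1 at 95 bases and GPX2 at 118 bases, and TXNRD1 held a further one 4 bases before its start. These did not overlap the AP-1 word. All distances are from RefSeq starts, and the deposited annotation sets some starts elsewhere. There GCLM, on the minus strand, starts at 93910370, so the word shown for it lies inside the gene. CYP4F11 and CYP4F3, neighbouring copies of 1 family, held the same word after the same 10 bases and differed within the bases that follow it. The words lay 152 and 587 bases before their RefSeq starts. The deposited annotation starts CYP4F3 at 15640897, nearer to its word. A match of letters is a description and not a site of binding.

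MALAT1, the target of the siRNA, had 231045 reads in the control and 43858 in the si-MALAT1 library of H460. In H1299 the counts were 407551 and 47935, and in A549 93747 and 14447, so the si-MALAT1 library was the lower one in each line. By edgeR its log2 fold change over the 3 lines was -2.72 ± 0.16 (SE, adjusted p = 0.0381), a call that was lost without H1299 (adjusted p = 0.125) or A549 (adjusted p = 0.275). Libraries held 42506818 to 68515992 reads on genes. Of 5 epithelial markers, the keratins KRT8 and KRT18 stood at 122.5 TPM or more in every library. The other 3 were near 0 in some lines, with CDH1 at most 0.0468 TPM and EPCAM at most 0.776 TPM in H460 and H1299, and KRT19 at most 2.23 TPM in A549 and 0.256 TPM in H1299. Of 4 mesenchymal markers, VIM, a filament, stood at 446 TPM or more in every library. ZEB1 ran from 2.43 to 10.8 TPM, and FN1 from 17.3 TPM in the H1299 control library to 1031 TPM in that of H460. CDH2 was at most 0.895 TPM in H460 and at least 15.7 TPM in the other lines. The lung lineage gene SFTPB had no read, and NKX2-1 and SFTPC stayed at or under 0.291 TPM. Of the leukocyte genes, PTPRC had no read and CD68, a lysosomal protein, ran from 9.40 to 47.3 TPM. TPM is a relative level that the authors corrected for transcript length and for the total of the library.

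Most of the NRF2 genes were far higher in H460 and A549 than in H1299. Of the gene reads of the control libraries, they took 1.78% in H460, 3.02% in A549 and 0.305% in H1299. The edgeR and DESeq2 calls that follow pool the control and si-MALAT1 library of each line, with treatment as a block. They are thus not calls on the control libraries alone. Compared with H1299, 37 of the 40 were called higher in A549 by edgeR at an adjusted p below 0.05, where 22.8% of all 21771 genes tested were called higher. In H460, 35 of the 40 were called higher, with 24.8% of all genes. None was called lower in either line by edgeR or DESeq2, where edgeR called 24.4% and 25.9% of all genes, with 3 of the 40 in A549 and 5 in H460 not passing even at an unadjusted p below 0.05. In both lines at once, 34 of the 40 were called higher, against 14.2% of all genes. The 6 others were NFE2L2, KEAP1, CBR3, HMOX1, GPX2 and AKR1C4. On scaled counts, both libraries of H460 and A549 lay above both libraries of H1299 for 34 of the 40, against 21.8% of all genes, and below them for none, against 28.4%.

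The spread in this test is that between the control and si-MALAT1 library of a line, so the test compares these 3 lines and not KEAP1 mutant with KEAP1 wild-type cells. With the 3 control libraries alone, and H460 and A549 as the samples of 1 group, edgeR called none of the 40, while 28 had an unadjusted p below 0.05, against 7.35% of all genes. Since 5 of the genes had no read in H1299, they entered the test only through the lines where they are high. Among the 35 with a read in every library, 31 were called higher in both lines, against 15.3% of such genes.

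**Figure D1:**
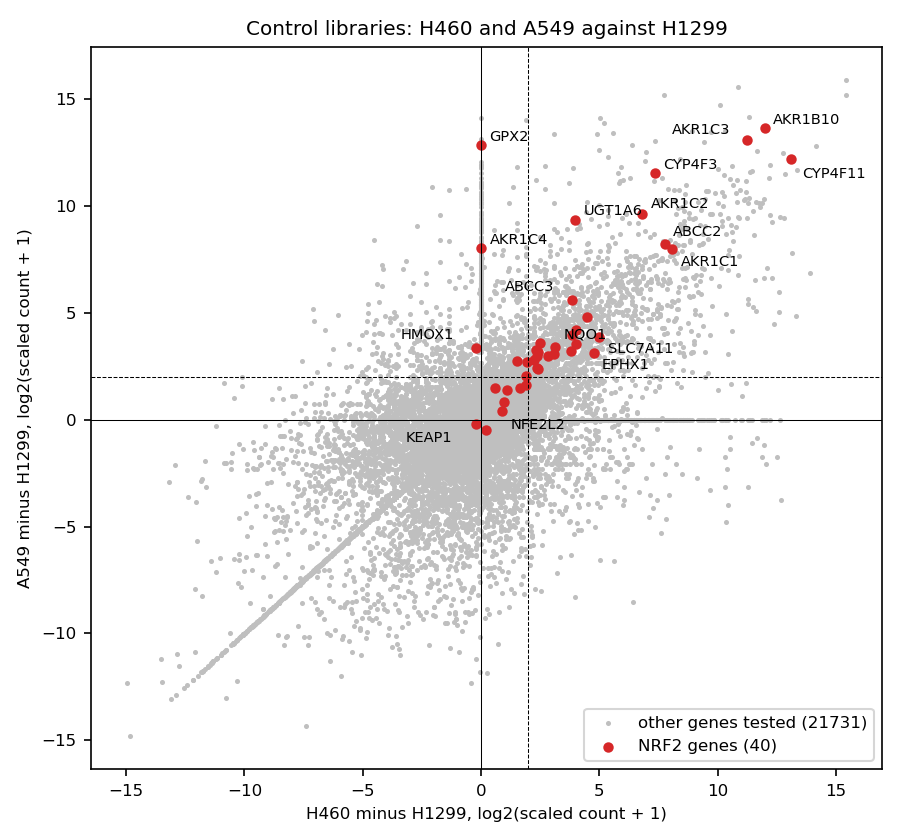
Difference between control libraries in log2(scaled count + 1), H460 minus H1299 on the horizontal axis and A549 minus H1299 on the vertical axis, with the 40 NRF2 genes in red, the other genes tested in grey and dashed lines at 4-fold. 26 of the 40 lie at or past 4-fold in both lines, while KEAP1 sits near 0 and GPX2 and AKR1C4 rise along the vertical axis only.

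By size, 26 of the 40 were at least 4-fold higher in both control libraries than in the H1299 control library, against 6.01% of all genes, and none was at least 4-fold lower, against 8.41%. Among the 35 with a read in every library, 23 were at least 4-fold higher in both, against 3.65% of such genes. The median gene of the list was 5.91-fold higher in H460 (38 genes, the 3 without H1299 reads taken at their lower bound) and 9.47-fold higher in A549 (40 genes, 5 at their bound). Over all genes tested, the median difference was -0.04 and -0.05 on the log2 scale. The bound sets H1299 at 3 reads a library.

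Of the regulators, NFE2L2 and KEAP1 themselves differed little. In what follows, each pair of TPM values is the control library and then the si-MALAT1 library. NFE2L2 stood at 48.6 and 32.5 TPM in H460, 42.1 and 37.2 in A549 and 31.0 and 34.8 in H1299. KEAP1 stood at 20.6 and 24.9 TPM in H460, 24.5 and 30.5 in A549 and 28.0 and 31.2 in H1299. The groups overlapped for KEAP1, and for NFE2L2 the H460 si-MALAT1 library lay between the H1299 libraries on this scale. By edgeR, the log2 difference from H1299 for NFE2L2 was 0.62 ± 0.17 in H460 (SE, adjusted p = 0.027) and 0.31 ± 0.17 in A549 (adjusted p = 0.18). For KEAP1 it was -0.03 ± 0.14 in H460 (adjusted p = 0.86) and -0.05 ± 0.14 in A549 (adjusted p = 0.78). MAFG, the small MAF partner, was called higher in both lines, at 14.5 and 10.1 TPM in H460, 15.5 and 13.4 in A549 and 8.60 and 10.1 in H1299, a log2 difference of 0.72 ± 0.17 in H460 and 0.67 ± 0.17 in A549 (SE).

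The 6 glutathione and cystine genes split into 5 that were higher in both lines and GPX2, which was found in A549 alone. SLC7A11, the cystine transporter that supplies cysteine for glutathione, stood at 125 and 102 TPM in H460, 67.7 and 35.9 in A549 and 4.58 and 1.33 in H1299. GCLC, the catalytic subunit of the enzyme that starts glutathione synthesis, stood at 22.1 and 27.2 TPM in H460, 61.3 and 60.3 in A549 and 8.99 and 10.3 in H1299. GCLM, its modifier subunit, stood at 23.8 and 19.3 TPM in H460, 40.3 and 24.7 in A549 and 5.97 and 6.53 in H1299. The 3 genes that supply glutathione were thus higher in every H460 and A549 library, and SLC7A11 had the widest gap of them, with an edgeR log2 difference of 5.86 ± 0.45 in H460 and 4.31 ± 0.42 in A549 (SE). GSR, which reduces oxidised glutathione, stood at 124 and 119 TPM in H460, 222 and 213 in A549 and 28.5 and 24.0 in H1299. MGST1, a membrane-bound glutathione transferase, stood at 215 and 156 TPM in H460, 312 and 278 in A549 and 11.1 and 13.7 in H1299. GPX2, a glutathione peroxidase of epithelia, had no read in H460 or H1299 and 171 and 316 TPM in A549, at least 3153-fold above H1299 in the control libraries.

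All 4 thioredoxin genes were higher in both lines. TXNRD1, which reduces thioredoxin with NADPH, stood at 557 and 505 TPM in H460, 674 and 499.6 in A549 and 127 and 117 in H1299. SRXN1, which restores overoxidised peroxiredoxins, stood at 255 and 203 TPM in H460, 196 and 174 in A549 and 21.4 and 22.4 in H1299. SRXN1 had the largest difference of the 4, 3.73 ± 0.15 in H460 and 3.14 ± 0.15 in A549 (log2, SE). TXN, thioredoxin itself, was already high in H1299 at 311 and 350.0 TPM, and stood at 984 and 1139 in H460 and 949 and 941 in A549. PRDX1, a peroxiredoxin that thioredoxin reduces, had the smallest difference of the 4, at 1255 and 1403 TPM in H460, 1807 and 1360.4 in A549 and 686 and 728 in H1299. PRDX1 shares 28.2% of its exon bases with the opposite strand gene MMACHC, and whether counting used strand is not given in the sources used here.

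The 4 NADPH genes were also called higher in both lines. PGD, an NADPH-forming enzyme of the pentose phosphate pathway, stood at 308 and 240.5 TPM in H460, 696 and 591 in A549 and 72.2 and 67.4 in H1299. TKT, transketolase of the same pathway, stood at 325 and 337 TPM in H460, 644 and 555 in A549 and 74.0 and 76.3 in H1299. Both were higher in A549 than in H460 as well, with an edgeR log2 difference of 0.94 ± 0.13 for PGD (SE, adjusted p = 0.0029) and 0.56 ± 0.15 for TKT (adjusted p = 0.031). ME1, malic enzyme, which forms NADPH from malate, stood at 41.3 and 36.2 TPM in H460, 35.2 and 30.1 in A549 and 3.00 and 3.82 in H1299. TALDO1, transaldolase, stood at 243 and 95.5 TPM in H460, 307 and 73.5 in A549 and 75.8 and 28.4 in H1299. It was the 1 gene of the 4 whose lines overlapped, since the A549 si-MALAT1 library lay just below the H1299 control library.

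The widest differences of genes with reads in every library were among the enzymes that reduce quinones and carbonyls. AKR1B10, an aldo-keto reductase of retinal and other aldehydes, stood at 900.2 and 757 TPM in H460 and 3329 and 2358 in A549, and at 0.223 and 0.229 in H1299, which is 23 and 20 reads. AKR1C3, a ketosteroid and prostaglandin reductase, stood at 484 and 553 TPM in H460, 2070.3 and 1796 in A549 and 0.211 and 0.401 in H1299, the last from 15 and 24 reads. Both thus ranked among the most abundant of the 40 in A549 and near the bottom in H1299. By edgeR, AKR1B10 was higher than in H1299 by 12.07 ± 0.25 in H460 and 13.54 ± 0.26 in A549, and AKR1C3 by 11.07 ± 0.32 and 12.68 ± 0.33 (log2, SE). AKR1C1, a hydroxysteroid dehydrogenase of the same family, stood at 148 and 175 TPM in H460, 164 and 145 in A549 and 0.631 and 0.421 in H1299. AKR1C2, its close copy, stood at 162 and 189.9 TPM in H460, 1267 and 1071 in A549 and 1.85 and 1.16 in H1299. Since 25.6% of the 100-base stretches of AKR1C2 also occur in AKR1C1, reads of these genes may be divided unevenly. AKR1C4, a mainly hepatic member, had no read in H460 or H1299 and 4.73 and 4.00 TPM in A549, at least 109.7-fold above H1299 in the control libraries.

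The other genes of this group showed smaller differences. NQO1, the quinone reductase used as the standard readout of NRF2, stood at 898 and 840.2 TPM in H460, 1281 and 891 in A549 and 120.2 and 108 in H1299, a log2 difference of 3.29 ± 0.18 in H460 and 3.30 ± 0.18 in A549. PTGR1, a reductase of prostaglandins and alkenals, stood at 127 and 120.4 TPM in H460, 318 and 254 in A549 and 27.6 and 26.8 in H1299. PIR, a nuclear iron-binding protein, stood at 87.9 and 113 TPM in H460, 102 and 116 in A549 and 19.9 and 20.8 in H1299, and 52.0% of its exon bases are shared with the read-through gene PIR-FIGF. These 3 genes stayed well above H1299 in all libraries of the other lines. CBR1, a carbonyl reductase, stood at 62.7 and 73.7 TPM in H460, 139 and 132 in A549 and 49.6 and 39.6 in H1299, a difference of 0.90 ± 0.18 in H460 and 1.58 ± 0.18 in A549 (log2, SE). CBR3, its neighbour on chromosome 21, ran from 9.28 to 15.6 TPM over the 6 libraries and was called in neither line.

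Among the drug-metabolising enzymes, 3 had no read at all in H1299. CYP4F11, a fatty acid and vitamin K hydroxylase, stood at 50.8 and 29.8 TPM in H460 and 31.8 and 20.5 in A549, at least 3724-fold and 1994-fold above H1299 in the control libraries. CYP4F3, a leukotriene hydroxylase, stood at 0.722 and 0.626 TPM in H460 and 14.0 and 17.8 in A549, at least 68.1-fold and 1271-fold above H1299. UGT1A6, a glucuronosyltransferase of phenols, stood at 0.110 and 0.325 TPM in H460 and 5.99 and 13.3 in A549, at least 6.22-fold and 279-fold above H1299. CYP4F11 was thus higher in H460 than in A549, while CYP4F3 and UGT1A6 were mainly genes of A549. UGT1A6 shares 56.8% of its exon bases with other genes of the UGT1A cluster, so its reads may belong to a neighbour. EPHX1, the microsomal epoxide hydrolase, went the other way between the 2 lines, at 76.9 and 63.6 TPM in H460, 28.0 and 26.4 in A549 and 3.39 and 5.08 in H1299.

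The 3 efflux pumps were called higher in both lines. ABCC2, an exporter of glutathione and glucuronide conjugates, stood at 112 and 89.4 TPM in H460, 183 and 159.6 in A549 and 0.680 and 0.488 in H1299, a log2 difference of 7.86 ± 0.18 in H460 and 8.33 ± 0.18 in A549. ABCC3, a basolateral pump of similar substrates, stood at 21.5 and 14.2 TPM in H460, 87.2 and 75.0 in A549 and 1.88 and 2.83 in H1299. ABCC1, which exports glutathione conjugates and drugs, stood at 16.8 and 11.1 TPM in H460, 33.2 and 23.7 in A549 and 5.17 and 6.68 in H1299. ABCC2 had by far the widest gap of the 3, while ABCC1 was the pump with the highest level in H1299.

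The heme and iron genes did not move as 1 group. FTL, the ferritin light chain, was the most abundant of the 40 genes in H460 and A549, at 3828 and 4624 TPM in H460, 4977 and 5388 in A549 and 629.8 and 718 in H1299. FTH1, the ferritin heavy chain, stood at 659.5 and 400.4 TPM in H460, 779 and 524 in A549 and 92.3 and 86.0 in H1299, with 73.2% of its exon bases overlapped by the opposite strand gene BEST1. The ferritin chains were higher in both lines by 2.88 to 3.00 on the log2 scale. HMOX1, heme oxygenase 1, stood at 4.43 and 8.14 TPM in H460, 62.6 and 68.0 in A549 and 6.07 and 12.9 in H1299. It was higher than in H1299 in A549 by 2.96 ± 0.26 (log2, SE, adjusted p = 0.00046) and did not pass the test in H460, where the difference was -0.20 ± 0.25 (adjusted p = 0.53).

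OSGIN1, an oxidative stress response gene linked to growth arrest, stood at 12.5 and 12.5 TPM in H460, 13.0 and 14.9 in A549 and 4.69 and 5.46 in H1299. TRIM16, a ubiquitin ligase of the tripartite motif family, stood at 90.2 and 93.3 TPM in H460, 113 and 94.2 in A549 and 8.05 and 8.39 in H1299. TRIM16L, its shortened copy, stood at 148 and 161 TPM in H460, 195 and 165 in A549 and 9.36 and 8.21 in H1299. All 3 were called higher in both lines, although TRIM16 and TRIM16L cannot be counted fully apart, since 20.7% of the 100-base stretches of TRIM16L occur in TRIM16.

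**Figure D2:**
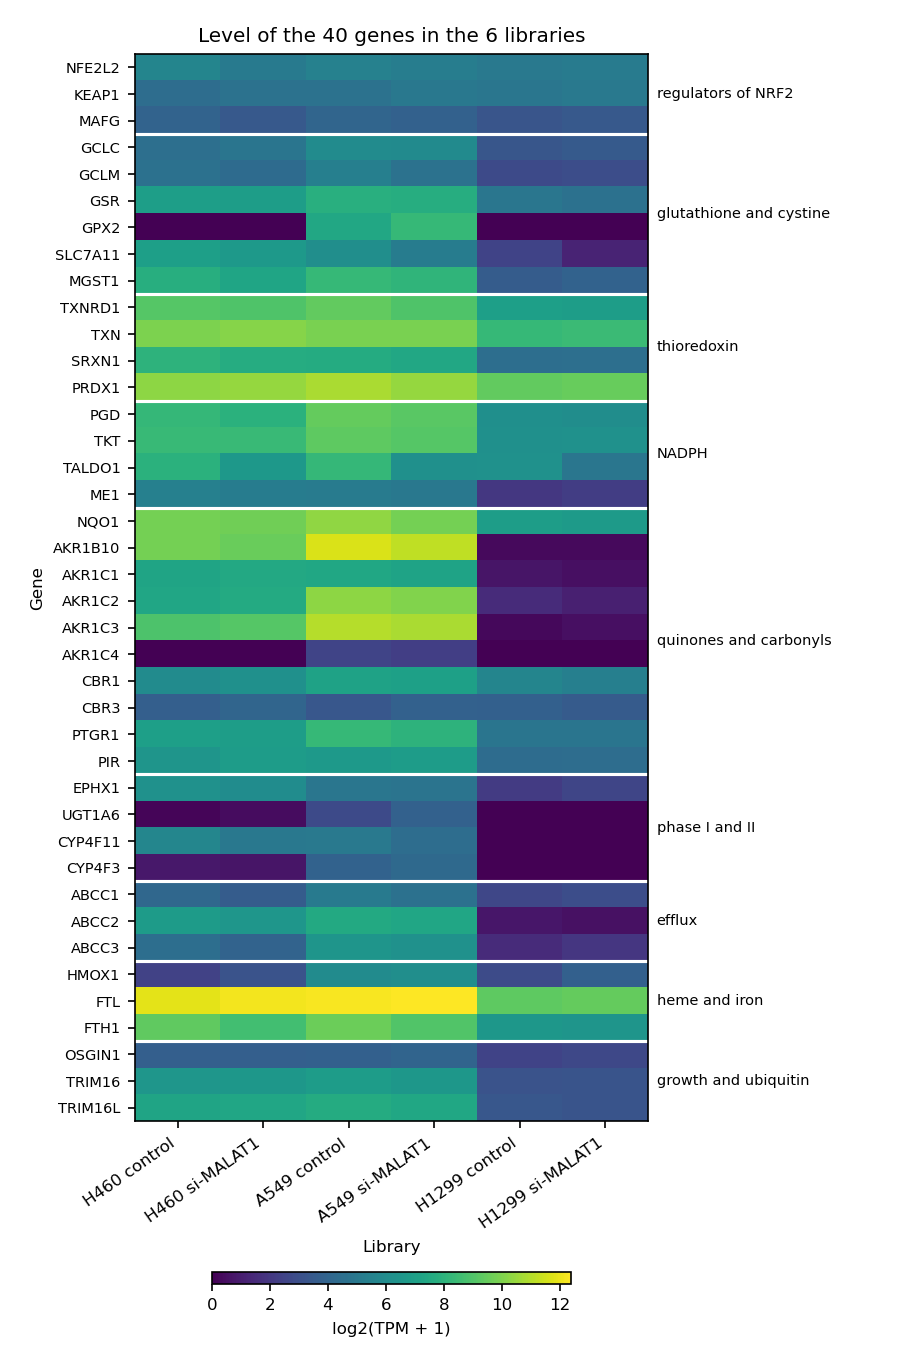
Level of each of the 40 genes in the 6 libraries as log2(TPM + 1), one row a gene grouped by role and one column a library. The H1299 columns are darker in most rows, while NFE2L2, KEAP1 and CBR3 are of like shade across the columns and GPX2 and AKR1C4 show in A549 alone.

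H460 and A549 also differed from each other. Of the 40 genes, 22 were called between them by edgeR, 17 higher in A549 (17.4% of all genes) and 5 higher in H460 (17.9% of all genes). The 17 included GPX2 and AKR1C4 without reads in H460, UGT1A6 and CYP4F3, and HMOX1 at 3.16 ± 0.27, AKR1C2 at 2.48 ± 0.22, ABCC3 at 1.90 ± 0.26 and AKR1C3 at 1.61 ± 0.20 (log2, SE). The 5 higher in H460 were EPHX1, SLC7A11, CYP4F11, SRXN1 and ME1, led by EPHX1 at -1.65 ± 0.21 and SLC7A11 at -1.55 ± 0.37. NQO1 and FTL were level between the lines, at 0.00 ± 0.17 and 0.00 ± 0.14.

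Other genes of the pathway were taken from 3 lists of non-members, also chosen with earlier results of these data known. Of 34 further reported NRF2 targets, 32 could be tested, and the mean of H460 and A549 was called higher than H1299 for 26 and lower for 2, against 23.1% and 28.3% of all genes. The same contrast called 36 of the 40 genes higher and none lower, with a median log2 difference of 3.03 against -0.06 over all genes. Among the further targets, ALDH3A1, an aldehyde dehydrogenase, stood at 493 and 433 TPM in H460, 801 and 617 in A549 and 0 and 0.136 in H1299. MGST2, a microsomal glutathione transferase, had no read in H1299 and 22.7 to 27.4 TPM in the other lines. The 2 lower were ABCC5, an efflux pump of cyclic nucleotides, and GSTM2, a cytosolic glutathione transferase. ABCC5 was called lower in both lines, whereas GSTM2 was called higher than H1299 in H460, by 1.34 ± 0.30, and lower in A549, at -3.13 ± 0.35 (log2, SE).

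Of 19 regulators, 4 were called higher in the mean of H460 and A549 and 3 lower, against the same 23.1% and 28.3% of all genes, so their counts were near or under the background. The higher ones were MAFK, a small MAF protein, at 2.43 (log2), AMER1 and PALB2, both KEAP1-binding proteins, and BRCA1, a DNA repair protein that interacts with NRF2. The lower ones were BACH1 and BACH2, repressors at the same elements, and NFE2L3, a relative of NFE2L2. PALB2 and BACH1 were called in A549 alone, and the other 5 in both lines. Of 18 antioxidant genes outside the list, 9 were higher and 3 lower, with 23.1% and 28.3% of all genes. GPX1, the main cytosolic glutathione peroxidase, stood at 97.8 to 111 TPM in H460 and A549 and at most 0.227 in H1299, while catalase (CAT) had no read in H460. The 3 lower were GPX4, a peroxidase of lipid hydroperoxides, MSRA, a methionine sulfoxide reductase, and CAT. Against H1299, MSRA was called lower in both lines and GPX4 in H460 alone, while CAT was called higher in A549, by 1.92 ± 0.16 (log2, SE, adjusted p = 0.00085). The share higher was thus 26 of 32 among further targets and 9 of 18 among antioxidant genes outside the list, a comparison that was not tested.

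**Figure D3:**
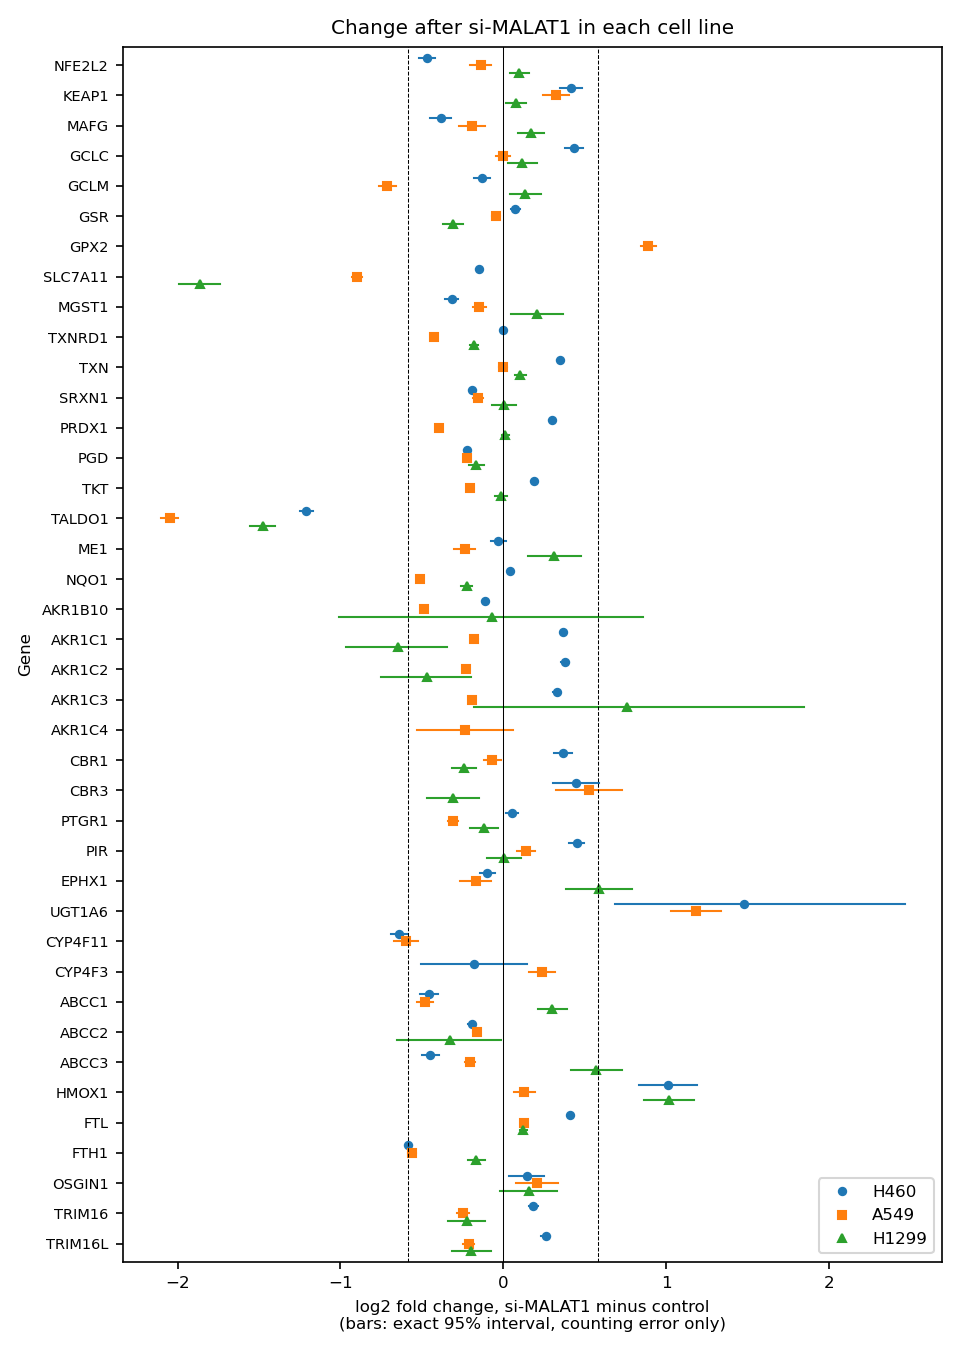
Log2 fold change from control to si-MALAT1 of each gene in H460, A549 and H1299, with exact 95% intervals for counting error only and dashed lines at 1.5-fold, for genes with reads in both libraries of the line. TALDO1 lies past the line at -0.58 in all 3 cell lines, at -1.21, -2.05 and -1.48, while most other genes stay between the dashed lines.

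After si-MALAT1, 7 of the 35 NRF2 genes with reads in every library had a positive log2 fold change in A549, compared with 19 in H460 and 18 in H1299. Of all 17834 genes with such reads, 9045 were positive in A549, 9253 in H460 and 9256 in H1299. The median of the 35 was -0.19 in A549, 0.05 in H460 and 0.00 in H1299, and over all 17834 genes it was 0.01, 0.02 and 0.02. Over the 3 lines, edgeR called none of the 38 genes that passed its filter, and 1 gene in all, MALAT1, which is 0.00523% of the 19122 tested. At an unadjusted p below 0.05 it found 6 of the 38, against 15.0% of all genes. DESeq2 with the same design called 5 of the 38, TALDO1, SLC7A11, FTH1 and CYP4F11 lower and UGT1A6 higher, against 3.02% of all genes lower and 2.94% higher. CYP4F11 and UGT1A6 had no read in H1299, so their values rest on H460 and A549 alone. The median log2 fold change of the 38 was -0.11, with 13 positive, against 0.00 over all genes, with 9661 of 19122 positive. Of the 35 genes with reads in every library, 13 (37.1%) had the same sign in the 3 lines, against 40.2% of all such genes. GPX2 and AKR1C4, with reads in A549 alone, were left out of the 38 by the filter on low counts. The filter was set on condition and asks for reads in more libraries than the 2 of a line, whatever the level there.

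TALDO1 (chromosome 11, 747464 to 765012, GRCh38) had the most negative edgeR log2 fold change of the 38 over the 3 lines. Control and si-MALAT1 libraries held 16971 and 6932 reads of it in H460, 12854 and 3434 in A549 and 5242 and 1718 in H1299. Every si-MALAT1 library thus lay below the control library of its own line. On the log2 scale H460 gave -1.21 (95% interval -1.25 to -1.17), A549 -2.05 (-2.10 to -1.99) and H1299 -1.48 (-1.56 to -1.40), with a mean of -1.58 ± 0.43 (SD, n = 3 lines). In edgeR it was -1.60 ± 0.18 (SE, adjusted p = 0.0734), and in DESeq2 the adjusted p was 4.4e-13. Without H460 it passed in edgeR (adjusted p = 0.0196), and the adjusted p was 0.131 without H1299 and 0.46 without A549. It was the 1 gene of the 35 that was lower by at least 1.5-fold in all 3 lines, where 1.28% of all genes were. None was higher by that much in all 3, against 1.19%. Its neighbours in the pentose phosphate pathway stayed near their control level, with log2 fold changes of -0.22 in H460, -0.22 in A549 and -0.16 in H1299 for PGD and of 0.19, -0.20 and -0.01 for TKT.

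SLC7A11 was lower in each line by very different amounts. On the log2 scale the siRNA change came to -0.15 for H460 (95% interval -0.17 to -0.13), -0.90 for A549 (-0.93 to -0.87) and -1.86 for H1299 (-1.99 to -1.74). The value was thus most negative in the line where the gene was lowest, with 2533 and 636 reads. Over the 3 lines edgeR gave -0.97 ± 0.31 (SE, adjusted p = 0.235) and DESeq2 an adjusted p of 0.0176.

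HMOX1 was higher after si-MALAT1 by 1.01 in H460 (95% interval 0.84 to 1.19) and 1.02 in H1299 (0.87 to 1.17), and by 0.13 in A549 (0.06 to 0.20), on the log2 scale. The lines with a low control level thus showed the larger values, and the line with a high level the smallest. Over the 3 lines edgeR gave 0.69 ± 0.20 (SE, adjusted p = 0.21). UGT1A6 had no read in H1299, 16 and 44 reads in H460 and 504 and 1265 in A549, an edgeR log2 fold change of 1.28 ± 0.26 (adjusted p = 0.138). FTH1 gave -0.45 ± 0.13 (adjusted p = 0.204) and CYP4F11, also without reads in H1299, -0.64 ± 0.13 (adjusted p = 0.148). FTL, the other ferritin chain, had positive values in each line, 0.41 in H460, 0.13 in A549 and 0.12 in H1299.

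**Figure D4:**
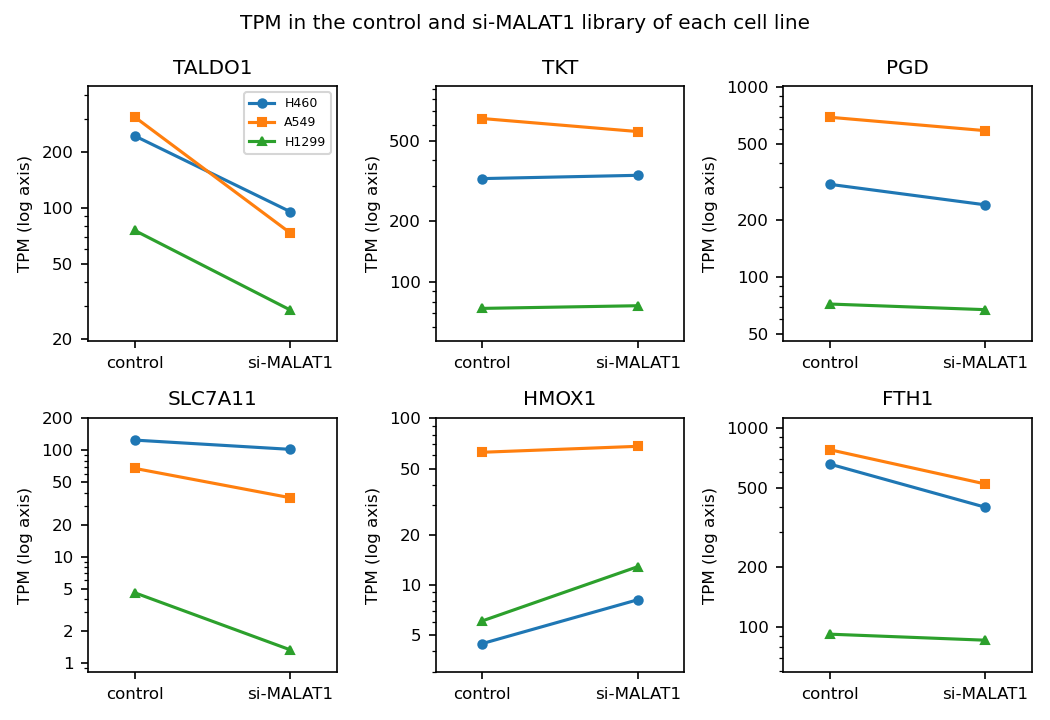
TPM on a log axis in the control and si-MALAT1 library of H460, A549 and H1299 for 6 genes, with 1 line joining the libraries of a cell line. The lines of TALDO1 go down in all 3 cell lines while those of TKT and PGD stay nearly flat, and SLC7A11 goes down most in H1299.

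Within a line, 1.5-fold or more was reached by few of the 35 genes. In H460, HMOX1 was higher and TALDO1 lower, against 9.5% and 10.3% of all genes. In A549 none was higher and TALDO1, SLC7A11 and GCLM were lower, against 11.5% and 11.4%. In H1299, HMOX1, AKR1C3 and EPHX1 were higher and SLC7A11, TALDO1 and AKR1C1 lower, against 11.7% and 11.4%. AKR1C3 rests on 15 and 24 reads there, and its 95% interval ran from -0.18 to 1.84. EPHX1 was barely past 1.5-fold in H1299, at 0.586 (log2, 95% interval 0.39 to 0.79), and ABCC3 fell just short at 0.570. Outside the 35, GPX2 went from 5694 to 11662 reads in A549 (log2 fold change 0.89). UGT1A6 was also higher by at least 1.5-fold, at 1.48 in H460, from 16 and 44 reads, and 1.18 in A549. CYP4F11 was lower by at least that much, at -0.64 in H460 and -0.60 in A549. AKR1C4 and CYP4F3 did not pass 1.5-fold in any line. Together the 40 genes took 1.90% of gene reads in the H460 si-MALAT1 library, 2.58% in that of A549 and 0.293% in that of H1299, so their order among the lines was that of the controls.

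The difference between the siRNA change of H460 with A549 and that of H1299 was fitted directly, with 1 residual degree of freedom. edgeR called none of the 38 genes and none of all genes, while 5 of the 38 had an unadjusted p below 0.05, against 7.94% of all genes. SLC7A11 had a difference of 1.33 ± 0.34 (log2, SE, adjusted p = 0.538) in edgeR, and it was the 1 gene of the 38 called by DESeq2 (adjusted p = 0.0138), where 0.309% of all genes were called in that direction. Its change was smaller in H460 and A549 than in H1299. ABCC3 at -0.91 ± 0.22, ABCC1 at -0.78 ± 0.20 and EPHX1 at -0.73 ± 0.21 had positive values in H1299 and negative ones in both other lines, and CBR3 at 0.78 ± 0.29 had the reverse. No gene passed 1.5-fold in opposite directions in H1299 and both other lines. On simulated data this fit recovered 3% of genes made to differ 2-fold and 29% of those made to differ 4-fold. A 2-fold difference was thus mostly missed in the simulated data. Whether the 3% and 29% hold for these libraries was not tested.

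NFE2L2 and KEAP1 did not pass 1.5-fold in any line after si-MALAT1. The log2 fold change of NFE2L2 was -0.47 in H460, -0.14 in A549 and 0.10 in H1299, and that of KEAP1 was 0.42, 0.32 and 0.08. Of the other lists, UGDH, which makes the UDP-glucuronate used by glucuronosyltransferases, was lower by at least 1.5-fold in all 3 lines, at -0.74 in H460, -1.64 in A549 and -1.27 in H1299. SLC48A1, a heme transporter, was as well, at -0.65, -0.90 and -0.67. NFE2, a blood-cell relative of NFE2L2, was higher by that much in all 3 lines, at no more than 2.14 TPM. It rests on 0 and 14 reads in A549 and 12 and 22 in H1299. MAFK gave -1.01 in H460, -0.84 in A549 and -0.53 in H1299, the last short of 1.5-fold. Over the 3 lines edgeR gave -0.81 for MAFK (adjusted p = 0.0866) and DESeq2 an adjusted p of 1.0e-05. Of the 19 regulators, 12 had a positive edgeR log2 fold change. EPCAM, an epithelial adhesion molecule, and COL1A1, a fibroblast collagen, were the marker genes higher by at least 1.5-fold in all 3 lines, at no more than 8.04 and 2.03 TPM. The part of these low markers in the values above was not tested.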

How the data were processed

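Total RNA had been made into stranded, rRNA-depleted libraries and sequenced in read pairs. Per the labels and the study's methods, the authors aligned reads with HISAT2 and assembled transcripts with StringTie, and the deposited table gives raw counts, FPKM and TPM per gene on GRCh38 with an NCBI annotation. The processing notes name HISAT2 2.1.0, StringTie 1.3.4b, bcl2fastq 2.20.0 and Trimmomatic, whereas the study's methods name another version of StringTie. Whether counting used strand is not given in the sources used here. The table also held 18 columns of samples outside this series, which were not used, and FPKM was not used.

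Counts were tested in edgeR 4.0.16 (R 4.3.3) by the quasi-likelihood test with TMM scaling, filterByExpr on the groups compared and Benjamini-Hochberg adjustment over all genes tested, with a gene called at an adjusted p below 0.05. This test gives no SE, so the SE of an edgeR value is its absolute log2 fold change divided by the square root of its F statistic. The siRNA test had cell line as a block (2 residual degrees of freedom) and the line tests had treatment as a block, over all 6 libraries. The block rests on shared cell lines, and the deviations of the 2 libraries of a line correlated at 0.88 in H460, 0.906 in H1299 and 0.874 in A549. DESeq2 1.42.0 was the alternative tool. Within a line there was no test: log2(RLE-scaled count + 1) was compared, with exact Clopper-Pearson 95% intervals that cover counting error only. Scripts were tested on simulated data. In these, the siRNA test recovered 64% of genes changed 2-fold, and the line test 42%. On the counts of the 6 libraries, the siRNA test in edgeR called 1 of 19122 genes. It did not call TALDO1, at a log2 fold change of -1.60 (adjusted p = 0.0734). Whether the 64% and 42% hold for these libraries was not tested.

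Every gene of the list is named. Values in every library are given for NFE2L2, KEAP1, genes called higher in both lines and genes called or past 1.5-fold after siRNA in 3 lines, and other genes were shown where a sentence turns on them. The members and lists were chosen with earlier results of these data known.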

Additional observations from a re-analysis of the deposited data

How the results depend on the processing

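For the siRNA change over 3 lines, members called numbered 0 in edgeR and 5 in DESeq2, and 0 to 1 when 1 cell line was left out. MALAT1 itself lost its call without the filter on low counts (adjusted p = 0.171), without H1299 (0.125), without A549 (0.275) and with no replicate block for cell line (1.00), where 0 members were called. For the mean of H460 and A549 against H1299, no replicate block for treatment left 34 members called against 36, the control libraries alone left 0, and leaving out H460 or A549 gave 35 to 37. In the same contrast, HMOX1 ran from -0.19 (log2) without A549 to 2.97 without H460, and CBR3 from -0.011 without H460 to 0.59 without A549, with -0.086 in the control libraries alone. The test of the difference in siRNA change called 1 member in DESeq2 and 0 in edgeR. Members past 1.5-fold within a line numbered 2 in H460, 6 in H1299 and 3 in A549. At a log2 fold change of 1.5 they numbered 0, 1 and 1, without the filter on zeros 4 in H460 and 6 in A549, and on TPM + 1 in H1299 3. Promoters with TGACNNNGC numbered 8, 4 with a following A and 17 in the longer window, which was added after seeing the data. Of the values for the main counts under these alternatives, 32 kept their direction and their side of the threshold or stayed within 1.5 times, and 12 did not. Of the values of single genes, 324 were likewise unmoved, 44 lost and 15 gained a call, and 3 changed sign. The cause of these shifts was not tested. The interaction could not be fitted without a cell line, since no residual degree of freedom is left, and the line contrast could not be fitted without H1299.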
